A study of Mus musculus with 16 samples.

Results

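The nuclear genes for the subunits of oxidative phosphorylation were followed through dorsal root ganglia of mice with a TrkA/C knock-in allele and of wild-type mice, with and without an inflamed ankle. Members were taken by symbol from the gene count table: every row whose name starts with Ndufa, Ndufb, Ndufc, Ndufs, Ndufv, Uqcr, Cox4, Cox5, Cox6, Cox7, Cox8 or Atp5, plus Sdha, Sdhb, Sdhc, Sdhd and Cyc1, without processed-pseudogene symbols, Ndufaf assembly factors and read-through names. The rule found 87 of 24982 rows and used no measured value: 37 genes of complex I, 4 of complex II, 9 of complex III, 20 of complex IV and 17 of complex V. Of these, 83 passed the filter on low counts and were tested.

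Oxidative phosphorylation is carried out by 5 protein complexes of the inner mitochondrial membrane. Complex I (NADH dehydrogenase) and complex II (succinate dehydrogenase) feed electrons into the chain, complex III passes them to cytochrome c, complex IV (cytochrome c oxidase) hands them to oxygen, and complex V (ATP synthase) makes ATP from the proton gradient that builds up. Most subunits are made from nuclear genes and imported, while complexes I, III, IV and V also hold subunits encoded in mitochondrial DNA, whose genes were not analysed here. Sensory neurons of the dorsal root ganglion keep long axons supplied with ATP and hold many mitochondria. Several complex IV subunits exist as a form used in most tissues and another known from striated muscle, lung or testis.

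RNA was from lumbar dorsal root ganglia (L4 to L6) on the injected side of mice aged 10 to 12 weeks, on a C57BL/6 background. The 4 groups were wild type with vehicle, wild type with complete Freund's adjuvant (CFA), knock-in with vehicle and knock-in with CFA, below WT vehicle, WT CFA, KI vehicle and KI CFA. The injection went into the ankle joint 14 days before collection; CFA causes a lasting local joint inflammation, and the labels call the vehicle saline in the sample names. Each group has 4 libraries, and each library pools 6 ganglia from 2 mice, so a library is an average of a pair of animals. The labels name the knock-in allele TrkA/C and do not describe its construction or which cells carry it.

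The 16 libraries held 22742209 to 40910947 counts. Ntrk3, the gene for the TrkC receptor, was at 29.3 to 61.4 CPM (counts scaled to a common library size) in the 8 libraries titled WT and at 99.1 to 138 CPM in the 8 titled KI. For 1 library, WT CFA replicate 1, the genotype field says knock-in although the sample name says WT; its Ntrk3 level of 48.4 CPM lay inside the WT range, and it was kept as WT. All 10 sensory neuron markers checked were present, from 91.2 CPM for Isl1 to 3149 CPM for Nefh as means over libraries. Markers of skeletal muscle were high in KI vehicle replicates 1 and 4, and markers of neutrophils and marrow in KI CFA replicate 3, where the 7 tested lay a median of 4.37 above their own means on the log2 scale. Beyond this, WT vehicle replicate 4 stood apart from the other libraries in the subunit genes themselves, and the values below that move most with it are given with and without it.

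The subunit transcripts were abundant. In CPM, scaled between libraries by TMM factors and not corrected for length, the member with the highest mean over 16 libraries was Ndufa10 at 182.9 for complex I, Sdha at 301.4 for complex II, Uqcrc1 at 216.6 for complex III, Cox4i1 at 255.3 for complex IV and Atp5b at 1072 for complex V. Ndufa4, named after complex I but a subunit of complex IV, stood at 208.9 CPM and is grouped with complex IV here. Together the 87 rows took 0.889% to 1.02% of all counts in 15 libraries and 1.28% in WT vehicle replicate 4.

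Levels of different genes can be compared only per transcript length. Per kilobase of annotated transcript, the highest members were Ndufb8 for complex I at 219, Sdha for II at 104, Uqcrh for III at 256, Cox6a1 for IV at 426 and Atp5b for V at 560 CPM per kb. Over all complexes Atp5b (the catalytic beta subunit of ATP synthase) was highest. After Cox6a1 came Cox4i1 at 343, Ndufa4 at 343 and Atp5a1 (the alpha subunit of ATP synthase) at 319 CPM per kb. In complex II, Sdha (the flavoprotein that oxidises succinate) and Sdhb (its iron-sulfur partner) were close, at 104 and 94.1 CPM per kb, followed by the membrane anchors Sdhd at 67.5 and Sdhc at 21.6 CPM per kb. In complex III, Uqcrh (the hinge protein) was at 256, the core protein Uqcrc1 at 131, Cyc1 (cytochrome c1) at 73.4 and Uqcrfs1 (the Rieske iron-sulfur protein) at 53.2 CPM per kb. Read length is 50 bases, and a short transcript offers few places for a read to map to it alone, so these levels are least certain for the small subunits.

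In all, 4 members were too low to test. Ndufs5, an accessory subunit of complex I, had 0 to 8 counts per library and a mean of 0.0795 CPM. Of its 50-base windows, 41.2% also occur in the transcript annotated as BC002163, and reads that map to both cannot be told apart in these counts. Cox7b2 had 0 to 7 counts, Cox8b 0 to 60 counts and Cox8c 1 count in the whole series. Several tested members also share sequence with pseudogenes or copies elsewhere: 87.4% of the windows of Atp5g2, 68.5% of Atp5l, 66.0% of Atp5g1, 53.0% of Cox7c and 50.5% of Atp5h have a second home, and their counts are uncertain to the extent that the counting dropped or split such reads.

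Among the paired forms of subunits, the ganglia expressed 1 form at a high level and the other near or below 2 CPM. Cox4i1 was at 255.3 CPM and Cox4i2, a form known from lung and from oxygen-sensing cells, at 0.912 CPM. Cox6a1 was at 243.1 CPM and its striated-muscle form Cox6a2 at 1.02 CPM. Cox6b1 was at 181.6 CPM and Cox6b2, a testis form, at 0.916 CPM. Cox7a2 and the related Cox7a2l were at 110.3 and 138.1 CPM, with the muscle form Cox7a1 at 2.01 CPM. Cox8a was at 166.5 CPM, with the muscle form Cox8b at 0.315 CPM. Ndufa4 was at 208.9 CPM and its paralog Ndufa4l2, known as a hypoxia-responsive gene, at 1.00 CPM. The c-ring of ATP synthase, which has 3 genes for 1 mature protein, was spread over Atp5g3 at 202.0 CPM, Atp5g1 at 145.9 CPM and Atp5g2 at 49.9 CPM, the last with the shared windows given above.

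In bulk tissue, fewer cells of a type and less RNA per cell cannot be told apart. The median deviation of the 83 tested members from their own 16-library means, in log2 CPM, was between -0.162 and 0.0624 in 15 libraries and was 0.397 in WT vehicle replicate 4. In that library complex I lay 0.37, complex II 0.29, complex III 0.40, complex IV 0.46 and complex V 0.40 above. WT vehicle replicate 4 was the highest of the 16 libraries for 72 of 83 members, and KI vehicle replicate 4 was the lowest for 42 of 83.

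**Figure D1:**
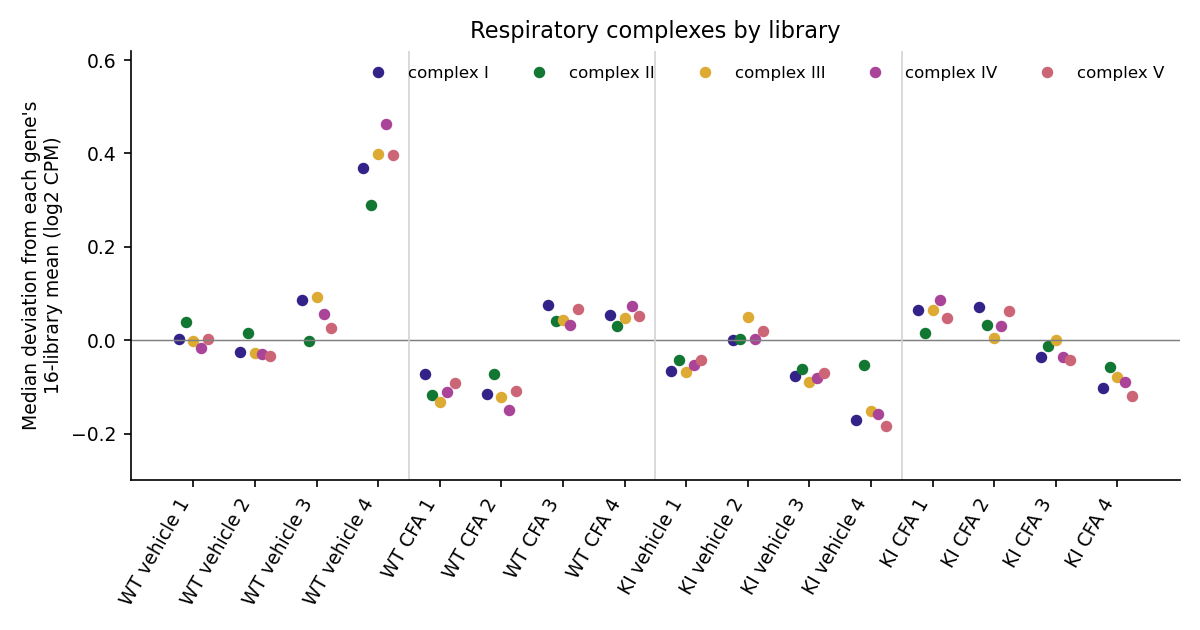
Median deviation of the tested genes of each complex from their own mean over 16 libraries (log2 CPM, vertical axis) in each library (horizontal axis, grouped by WT vehicle, WT CFA, KI vehicle and KI CFA); each point is 1 complex in 1 library. In WT vehicle replicate 4 the 5 complexes lie 0.29 to 0.46 above 0, and they lie below 0 in KI vehicle replicate 4.

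The excess in WT vehicle replicate 4 was uneven between subunits. Over the 77 members with at least 10 CPM, the ratio of its CPM to the mean of WT vehicle replicates 1 to 3 had a median of 1.30 and ran from 0.93 for Sdha to 1.70 for Atp5l. Large subunits did not share in it: Atp5a1 was at 0.991, Ndufs1 (the largest subunit of complex I) at 1.00 and Uqcrc1 at 1.01 of the other replicates. Small subunits did: Ndufb2 was at 1.69, Cox7c at 1.66 and Atp5e (the epsilon subunit of ATP synthase) at 1.63. The same contrast showed in the spread over all 16 libraries. Ndufs1 had a coefficient of variation of 2.82%, Atp5a1 2.96%, Sdha 3.54% and Atp5b 3.59%, against 20.3% for Atp5e, 19.9% for Atp5l, 19.6% for Ndufb2 and 18.0% for Cox7c.

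The ratio went with transcript length, and it did so outside oxidative phosphorylation as well. Across genes, which are not independent replicates, the Spearman correlation of deviation with annotated transcript length in WT vehicle replicate 4 was -0.529 over 14713 genes and -0.597 over 82 members. In KI vehicle replicate 4 it was 0.36 over all genes and 0.429 over the members. Other libraries also showed it: over all genes it ran from -0.306 in WT CFA replicate 4 to 0.314 in WT CFA replicate 2. Every KI vehicle library was above 0, at 0.195 to 0.36. For transcripts of 500 to under 1000 bases in WT vehicle replicate 4, the median deviation was 0.42 for 44 members and 0.40 for 744 other genes. For those of 2000 to under 4000 bases it was 0.055 for 6 members and 0.016 for 6104 other genes. Under 500 bases it was 0.64 for 9 members and 0.52 for 66 other genes. From 1000 to under 2000 bases it was 0.33 for 23 members and 0.21 for 3141 other genes. In each class with members, the members lay higher than the other genes. The cytosolic ribosomal proteins, which are also short, lay a median of 0.48 above their means in the same library and the mitochondrial ribosomal proteins 0.31. The part of transcript length, RNA quality or library preparation in the group differences below was not tested beyond the refits that are given beside them.

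**Figure D2:**
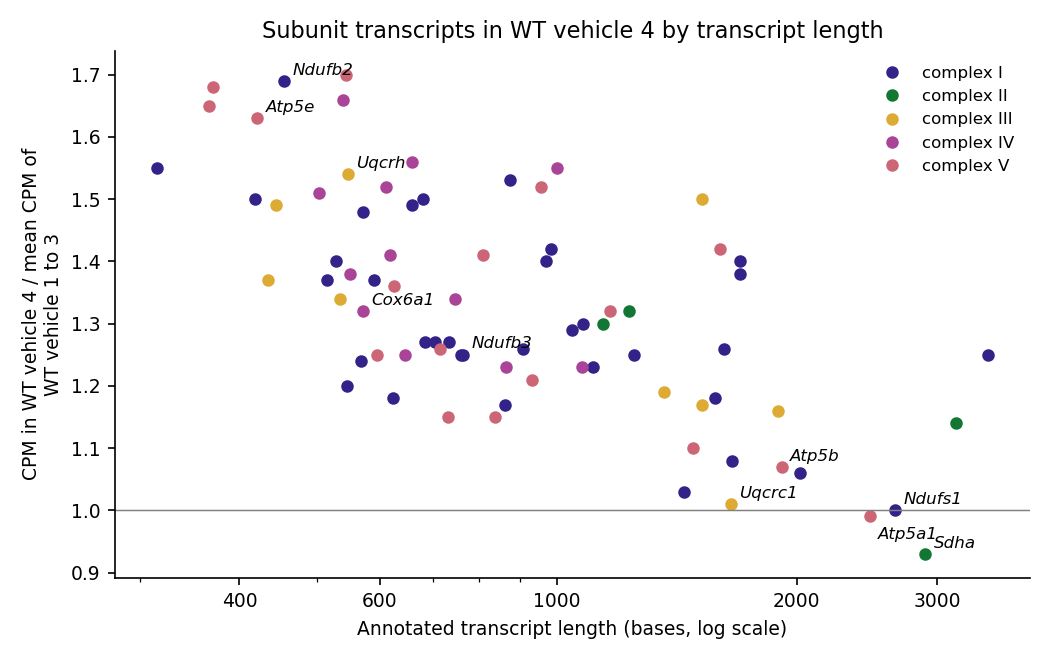
CPM in WT vehicle replicate 4 divided by the mean CPM of WT vehicle replicates 1 to 3 (vertical axis) against annotated transcript length in bases (horizontal log axis), for members with at least 10 CPM and a known length; colours give the complex and the line marks a ratio of 1. Short subunit transcripts such as Ndufb2 (1.69) and Atp5e (1.63) lie high, and the long ones Atp5a1 (0.991) and Sdha (0.93) lie at or below the line.

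The first comparison asks how ganglia of knock-in mice differ from wild type without joint inflammation. Only 1 of 83 members passed edgeR's quasi-likelihood test at an adjusted p under 0.05: Ndufb3 fell. It was also the 1 member called by limma-voom, run with a quality weight per library. WT vehicle replicate 4 had the lowest weight, 0.25, against 0.52 to 1.82 in the other libraries. DESeq2 called 12 (11 fell, and Cox6a2 rose), and edgeR without WT vehicle replicate 2 called 11, all lower in KI. The DESeq2 count and the count without WT vehicle replicate 2 have no share of all genes beside them here. In the edgeR fit of 16 libraries, 4.34% of all 15507 genes tested were called in either direction and 2.19% fell. The member share of 1.2% in that fit is below this background. The other 82 members did not pass, although their values leaned one way. The log2 fold change was below 0 for 76 of 83, with a median of -0.19 (0.00155 over all genes), and 46 of 83 had an unadjusted p under 0.05, against 3694 of 15507 genes. By complex the medians were -0.21 for complex I, -0.14 for II, -0.16 for III, -0.17 for IV and -0.19 for V.

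This lean depended on few libraries. Without WT vehicle replicate 4 the member median was -0.085 with 14 members at an unadjusted p under 0.05, and without both WT vehicle replicate 4 and KI vehicle replicate 4 it was -0.057 with 5. With each gene's expected counts offset for its transcript length, library by library, the median was -0.00098 over 82 members, 42 of them below 0. The offset was fitted on these same libraries with the members included. It therefore also takes out any group difference that goes with length, and cannot tell the 2 apart. Sample sources in the labels also carry a number, whose meaning they do not state. With vehicle, the WT libraries numbered 1 to 5 are replicates 1 and 2 only. Those numbered 6 to 9 are replicates 3 and 4 only, so each WT side is small. Against the WT libraries numbered 1 to 5 the median was -0.054 and no member was called by edgeR, with Ndufb3 at an adjusted p of 0.0686. Against those numbered 6 to 9, which include WT vehicle replicate 4, it was -0.31 and 57 of 83 members fell, among 3135 genes called in all. The part of these source numbers was not tested further.

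**Figure D3:**
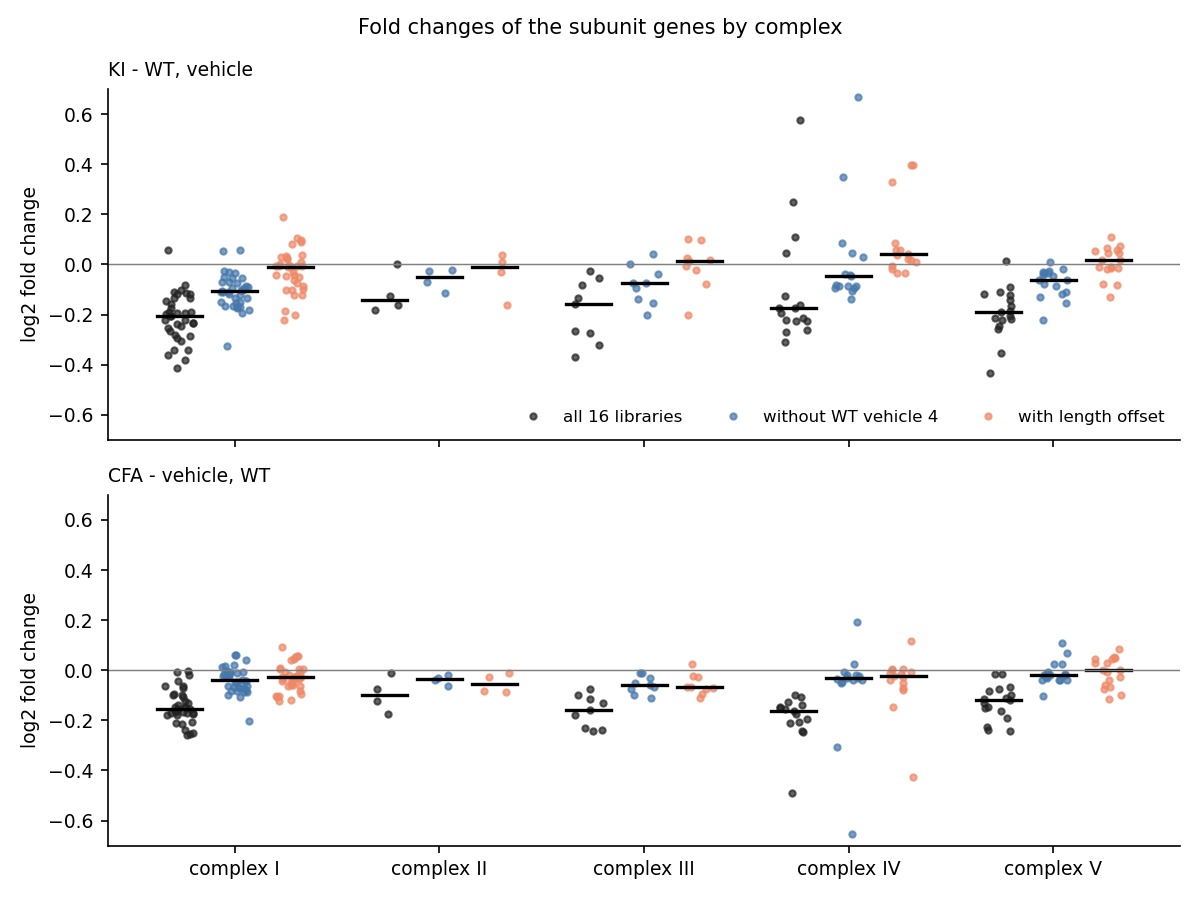
Log2 fold change of each member (vertical axis, points) by complex (horizontal axis), for KI against WT with vehicle (upper panel) and CFA against vehicle in WT (lower panel), fitted on 16 libraries, without WT vehicle replicate 4, and with the transcript-length offset; black bars are medians. Medians lie below 0 in the 16-library fit and nearer 0 in the other fits; 10 points beyond 0.7 either way, all of Cox6a2 or Cox4i2, are not drawn.

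Ndufb3, an accessory subunit in the membrane arm of complex I, was the member that passed. Its CPM was 80.5, 77.5, 88.4 and 102.8 in WT vehicle replicates 1 to 4 and 66.5, 68.2, 67.9 and 59.3 in KI vehicle replicates 1 to 4. Every WT vehicle library lay above every KI vehicle library, with or without replicate 4. The means were 87.3 ± 11.3 and 65.5 ± 4.195 CPM (SD, n = 4), a log2 fold change of -0.41 ± 0.08 (SE, edgeR adjusted p = 0.00707). Without WT vehicle replicate 4 the change was -0.33 (edgeR adjusted p = 0.0126), and with the length offset it was -0.20 (edgeR adjusted p = 0.0126). The call was lost without KI vehicle replicates 1 and 4 together (log2 fold change -0.36, edgeR adjusted p = 0.112). It was also lost against WT vehicle replicates 1 and 2 alone, those numbered 1 to 5 (-0.27, edgeR adjusted p = 0.0686).

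With CFA the genotypes overlapped in Ndufb3. WT CFA libraries were at 74.0, 70.6, 85.4 and 80.6 CPM and KI CFA libraries at 72.6, 75.03, 71.0 and 71.8 CPM. The group means were 77.6 ± 6.62 and 72.6 ± 1.73 CPM (SD, n = 4), and the log2 fold change was -0.096 (edgeR adjusted p = 0.734). Over both injections together Ndufb3 fell by 0.26 on the log2 scale in KI (SE 0.06, edgeR adjusted p = 0.00695), the 1 member of 83 called, where 8.96% of all genes were called in either direction and 4.64% fell. Against WT libraries numbered 1 to 5, which are replicates 1 and 2 of each WT group, this value was -0.13 and did not pass (edgeR adjusted p = 0.135). The interaction of genotype and injection for Ndufb3 was 0.32 ± 0.11 (SE) and did not pass (edgeR adjusted p = 0.718), so a difference between the 2 genotype effects was not shown. The gene lies on chromosome 1, 58586397 to 58595964, plus strand (GRCm38.p6), has an annotated transcript of 763 bases, and shares 6.7% of its windows with Gm45930.

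**Figure D4:**
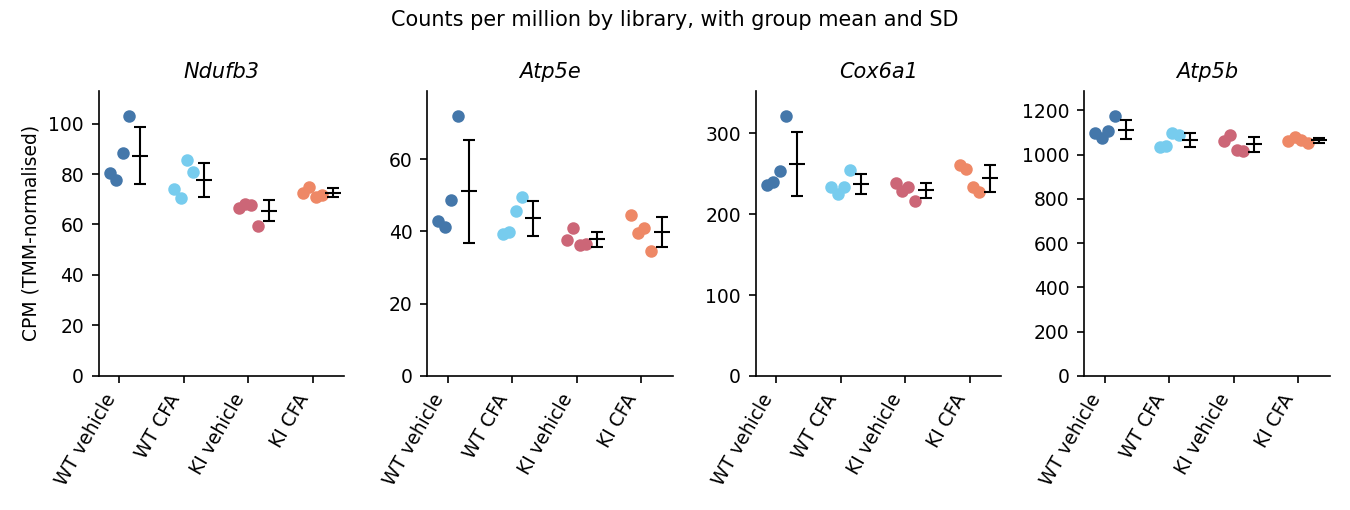
CPM of Ndufb3, Atp5e, Cox6a1 and Atp5b (vertical axes, from 0) in the 4 groups (horizontal axis); each point is 1 library in replicate order and bars are the mean and SD of 4. Ndufb3 in KI vehicle lies at 59.3 to 68.2, below the WT vehicle range of 77.5 to 102.8; in WT vehicle replicate 4 the point of Atp5e is far above the rest and that of Atp5b is little raised.

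The members next in line in complexes I, III and V were small subunits. Ndufa13 (also known as Grim19) was at 99.4, 102.4, 107.9 and 128.7 CPM in WT vehicle and at 90.3, 90.2, 94.2 and 89.6 CPM in KI vehicle. These ranges did not overlap, yet the log2 fold change of -0.27 ± 0.08 (SE) did not pass (edgeR adjusted p = 0.0552). Uqcr11, the smallest subunit of complex III, was at 74.6, 70.7, 83.4 and 113.6 CPM in WT vehicle against 66.5, 70.73, 63.3 and 64.2 CPM in KI vehicle (log2 fold change -0.37 ± 0.11, SE, edgeR adjusted p = 0.0664). Atp5e was at 42.7, 41.2, 48.6 and 71.8 CPM against 37.6, 40.9, 36.2 and 36.4 CPM (log2 fold change -0.43 ± 0.14, SE, edgeR adjusted p = 0.0700). For Uqcr11 and Atp5e too every WT vehicle library lay above every KI vehicle library, by less than 1 CPM at the closest. In each of these genes WT vehicle replicate 4 was the highest library of its group, and without it the log2 fold change was -0.18 for Ndufa13, -0.20 for Uqcr11 and -0.22 for Atp5e.

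Among members with long transcripts, Atp5a1, Atp5b and Ndufs1 showed no such gap, while Ndufa10 and Uqcrc1 did. Atp5a1 was at 790.8, 792.5, 770.5 and 777.5 CPM in WT vehicle and at 805.2, 803.6, 775.8 and 776.8 CPM in KI vehicle, and the groups overlapped. Its log2 fold change was 0.014 ± 0.040 (SE, edgeR adjusted p = 0.878). Atp5b was at 1099, 1074, 1107 and 1172 CPM against 1062, 1086, 1021 and 1015 CPM (log2 fold change -0.090 ± 0.042, SE, edgeR adjusted p = 0.198). Ndufs1 was at 128.7, 134.0, 132.4 and 131.8 CPM against 138.3, 139.3, 132.6 and 137.9 CPM, 1 of 7 members with a value above 0 (0.057 ± 0.041, SE, edgeR adjusted p = 0.421). Ndufa10 was at 193.1, 182.9, 187.7 and 199.3 CPM against 179.1, 182.5, 173.3 and 170.1 CPM. Uqcrc1 was at 221.3, 222.1, 225.6 and 226 CPM against 208.4, 221.2, 208.3 and 208.2 CPM. Both were narrowly without overlap. With any 1 library left out, the log2 fold change ran from -0.132 to -0.0925 for Ndufa10 and from -0.103 to -0.0666 for Uqcrc1.

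Complex II, the only complex with no subunit from mitochondrial DNA, has 4 genes, and none passed edgeR's test, with 2 at an unadjusted p under 0.05; the shortest transcripts, Sdhb and Sdhd, varied more than Sdha. Sdha ranged from 283.3 CPM in WT vehicle replicate 4 to 320.0 CPM in KI CFA replicate 2, and its log2 fold change with vehicle was -0.00017 ± 0.045 (SE, edgeR adjusted p = 1.00). Sdhb was at 108.3, 104.5, 106.0 and 138.0 CPM in WT vehicle and at 109.1, 105.8, 104.8 and 98.7 CPM in KI vehicle, so the groups overlapped and replicate 4 was the highest in one and the lowest in the other. Sdhd was at 86.3, 81.5, 84.0 and 111.1 CPM against 79.2, 84.0, 77.7 and 78.6 CPM. Sdhc, whose transcript is the longest of the complex, was at 70.1, 70.9, 68.9 and 79.5 CPM against 63.5, 65.3, 61.98 and 68.1 CPM, without overlap. The log2 fold changes were -0.13 for Sdhb, -0.18 for Sdhd and -0.16 for Sdhc, with edgeR adjusted p-values of 0.316, 0.178 and 0.148. With WT vehicle replicate 4 left out they were -0.023 for Sdhb, -0.072 for Sdhd and -0.11 for Sdhc.

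In complex III, cytochrome c1 and the Rieske protein carry the electrons. Cyc1 was at 113.7, 107.3, 120.1 and 133.1 CPM in WT vehicle and at 105.4, 117.8, 104.9 and 103.4 CPM in KI vehicle (log2 fold change -0.13 ± 0.064, SE, edgeR adjusted p = 0.212). Uqcrfs1 was at 72.3, 70.6, 68.1 and 84.0 CPM against 72.0, 77.6, 74.8 and 65.1 CPM (-0.026 ± 0.068, SE, edgeR adjusted p = 0.859). Both pairs of groups overlapped. Without WT vehicle replicate 4 the log2 fold change was -0.074 for Cyc1 and 0.042 for Uqcrfs1, which changed sign. The core protein Uqcrc1 ran only from 201.8 to 231.3 CPM over the 16 libraries.

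The second comparison sets the genotypes side by side 14 days after CFA. No member passed edgeR's test, and none had an unadjusted p under 0.05, against 1963 of 15507 genes. DESeq2 and limma-voom called none either. Over all genes, 2.84% were called. The log2 fold change was above 0 for 48 of 83 members and below 0 for 35, with a median of 0.00985, and no complex had a median beyond 0.039 either way. The smallest p-values belonged to Ndufa12 (log2 fold change 0.16 ± 0.082, SE, edgeR adjusted p = 0.445), Uqcrfs1 (0.13 ± 0.068, SE, edgeR adjusted p = 0.463) and Atp5a1 (0.065 ± 0.040, SE, edgeR adjusted p = 0.584). Uqcrfs1 was at 64.4, 66.5, 73.8 and 70.5 CPM in WT CFA and at 72.8, 76.8, 74.7 and 76.5 CPM in KI CFA, with 1 WT library inside the KI range. The comparison shares no library with the one above.

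The next comparisons ask what CFA changes within a genotype; they use the same vehicle libraries as the first. No gene in the whole table was called by edgeR in either (0% of 15507), so no member was; DESeq2 and limma-voom called no member. In WT, 12 of 83 members had an unadjusted p under 0.05, against 1079 of 15507 genes. Of all genes 8008 lay below 0, with a median of -0.0052. Of the members 82 of 83 lay below 0, with a median log2 fold change of -0.15. Without WT vehicle replicate 4 that median was -0.032 and with the length offset it was -0.027. The smallest p-values were those of Atp5j, a stalk subunit of ATP synthase (log2 fold change -0.24 ± 0.086, SE, edgeR adjusted p = 0.703), Cox4i2 (0.86 ± 0.34, SE, edgeR adjusted p = 0.703) and Cyc1 (-0.16 ± 0.064, SE, edgeR adjusted p = 0.703). Atp5j was at 91.5, 88.9, 89.5 and 127.2 CPM in WT vehicle and at 83.3, 79.8, 87.7 and 84.7 CPM in WT CFA, so the ranges did not overlap, but without WT vehicle replicate 4 its log2 fold change was -0.10. Without that library Cyc1 was at -0.098 and Cox4i2 at 0.95.

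In KI the values leaned the other way and were smaller. Above 0 lay 76 of 83 members (7791 of 15507 genes), and the member median was 0.065 (0.00073 over all genes). Against 881 of 15507 genes, 3 members had an unadjusted p under 0.05. Apart from Cox6a2, treated below, these included Ndufs6 (log2 fold change 0.19 ± 0.080, SE) and Ndufa9 (0.11 ± 0.047, SE), both with an edgeR adjusted p of 0.869. Ndufs6 was at 42.6, 42.0, 40.1 and 41.1 CPM in KI vehicle and at 49.6, 52.1, 43.3 and 44.4 CPM in KI CFA, without overlap. The test of whether the CFA effect differs between genotypes called no gene in the table by edgeR (0% of 15507). No member was called by edgeR, DESeq2 or limma-voom. An unadjusted p under 0.05 was found for 11 members, against 976 of 15507 genes. Above 0 lay 79 of 83 members and 7894 of all genes, whose median was 0.0037. The member median of this interaction was 0.21. It was 0.10 without WT vehicle replicate 4 and 0.038 with the length offset. Averaged over both genotypes, CFA gave a member median of -0.039, and edgeR called none of the 83 (0.0258% of all genes).

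The muscle form Cox6a2 had the largest fold change of any member, on very low counts. It was at 0.566, 0.158, 0.174 and 0.684 CPM in WT vehicle and at 4.72, 0.106, 0.580 and 8.04 CPM in KI vehicle. It was at 0.191, 0.104, 0 and 0.0577 CPM in WT CFA and at 0.286, 0.374, 0.104 and 0.197 CPM in KI CFA. Thus 2 KI vehicle libraries, replicates 1 and 4, were high, and the other 2 lay inside the WT vehicle range or below it. The log2 fold change of KI against WT with vehicle was 3.06 ± 0.87 (SE) and did not pass (edgeR adjusted p = 0.0512). It passed with the length offset (3.35, edgeR adjusted p = 0.0347) and under DESeq2 (3.1, DESeq2 adjusted p = 0.0325), and without KI vehicle replicates 1 and 4 it was -0.24 (edgeR adjusted p = 0.928). In KI, CFA against vehicle gave -3.79 ± 0.90 (SE, edgeR adjusted p = 0.257), and -0.48 without those 2 libraries.

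Markers of skeletal muscle moved with it. All 11 muscle markers checked were detected, and the sum of their CPM was 1050 and 950.6 in KI vehicle replicates 1 and 4, against 2.92 and 142.9 in replicates 2 and 3. In the other groups the sum ran from 3.64 to 93.5 CPM in WT vehicle, from 2.60 to 2.73 CPM in WT CFA and from 2.34 to 65.2 CPM in KI CFA. Of the 11, 4 rose in KI with vehicle by edgeR (Mylpf, Myh2, Actn3 and Acta1). Each of Acta1, Actn3, Myh1, Myh4 and Mylpf had counts in every library, and Tnnc2 was at 0 in 5. With a score of the muscle markers as a covariate the Cox6a2 value was 0.51 (edgeR adjusted p = 0.722). Cox8b followed the same 2 libraries, with 2.04 and 1.69 CPM in KI vehicle replicates 1 and 4 and 0 to 0.304 CPM elsewhere. Cox7a1, the third muscle form, was at 2.45, 1.30, 1.23 and 3.68 CPM in KI vehicle, higher in replicates 1 and 4 than in 2 and 3, with replicate 4 the highest of the 16 libraries. It was at 2.16, 0.980, 1.96 and 3.27 CPM in WT vehicle, again highest in replicates 4 and 1. The groups overlapped (log2 fold change 0.046 ± 0.36, SE, edgeR adjusted p = 0.960).

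**Figure D5:**
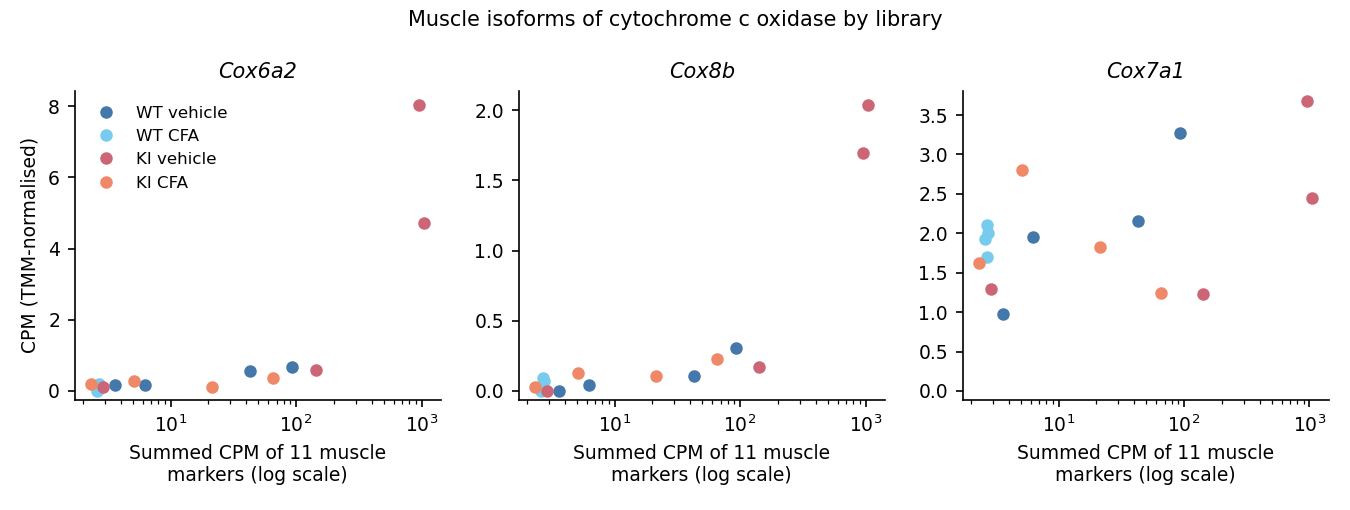
CPM of the muscle forms Cox6a2, Cox8b and Cox7a1 (vertical axes) against the summed CPM of 11 skeletal muscle markers (horizontal log axis) in 16 libraries; each point is a library and colours give the group. KI vehicle replicates 1 and 4, with marker sums of 1050 and 950.6, hold the highest Cox6a2 and Cox8b; Cox7a1 is also highest in a KI vehicle library, at 3.68 CPM, and is at 0.980 CPM or more in every library.

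The other low-level forms stayed near 1 CPM in every group. Cox4i2 was at 0.318, 0.885, 0.479 and 0.722 CPM in WT vehicle and at 1.08, 0.725, 1.18 and 1.41 CPM in WT CFA. Cox6b2 ran from 0.477 to 2.04 CPM over the 16 libraries and Ndufa4l2 from 0.143 to 1.43 CPM. None passed a test between groups by edgeR.

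Promoters of the members were read to see what their sequences share. Of the 87 members, 69 had a start site in the RefSeq promoter table (GRCm38.p6), and the 250 bases before it were searched on both strands. The core GCATGCGC of NRF1, a regulator known for respiratory chain genes, stood in 8 of 69 members (11.6%) and in 4.56% of 12233 tested genes in the table. The ETS core CCGGAAG, bound by GABPA, stood in 12 members (17.4%) and in 13.7% of tested genes. The CCAAT box stood in 30 members (43.5%) against 39.9%, and the YY1 core AAGATGGC in 1 member (1.45%) against 2.22%. The muscle E-box CAGCTG stood in 6 members (8.7%) against 15.0%. A gene counts once per motif however many matches it holds, matches of different motifs may share bases, and CAGCTG reads the same on both strands. These are matches of letters, not sites of binding.

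The promoters of 3 members are shown because they belong to the member that was called, to an abundant ubiquitous form and to a muscle form. Each is the 250 bases before the start site, read 5′ to 3′ on the gene's strand, with the matched motifs in capitals. Ndufb3 is at chr1:58586147-58586396 on the plus strand, Cox6a1 at chr5:115348959-115349208 on the minus strand and Cox7a1 at chr7:30183921-30184170 on the plus strand.
Ndufb3: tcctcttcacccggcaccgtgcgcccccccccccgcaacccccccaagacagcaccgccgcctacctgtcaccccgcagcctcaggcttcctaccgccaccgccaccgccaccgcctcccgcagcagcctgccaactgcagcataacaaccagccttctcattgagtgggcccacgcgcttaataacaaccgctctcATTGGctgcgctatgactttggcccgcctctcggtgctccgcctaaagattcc
Cox6a1: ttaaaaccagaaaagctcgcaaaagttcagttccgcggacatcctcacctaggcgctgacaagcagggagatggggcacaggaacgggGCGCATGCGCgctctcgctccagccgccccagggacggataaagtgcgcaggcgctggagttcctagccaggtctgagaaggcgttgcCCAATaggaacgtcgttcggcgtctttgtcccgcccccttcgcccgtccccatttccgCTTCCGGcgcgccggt
Cox7a1: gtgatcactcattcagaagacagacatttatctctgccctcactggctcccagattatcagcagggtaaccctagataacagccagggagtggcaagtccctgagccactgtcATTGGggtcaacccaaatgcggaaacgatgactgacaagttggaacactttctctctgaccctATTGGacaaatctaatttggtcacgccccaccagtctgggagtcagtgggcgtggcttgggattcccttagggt
The Ndufb3 window holds 1 CCAAT box, read on the other strand as ATTGG, and none of the other letters searched. The Cox6a1 window holds an NRF1 core on both strands as GCGCATGCGC, a CCAAT box and an ETS core close to the start. The Cox7a1 window holds the CCAAT letters at 2 places and none of the others.

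Few of the genes that build or serve the same chain were called. For KI against WT with vehicle, 4.34% of all genes tested were called in either direction. With vehicle, Uqcc2, an assembly factor of complex III, fell in KI (log2 fold change -0.45 ± 0.11, SE, edgeR adjusted p = 0.0295), 1 of 6 in its list. Among 14 regulators of mitochondrial biogenesis, Ppargc1b, a coactivator, rose (0.49 ± 0.13, SE, edgeR adjusted p = 0.0419), and Ppargc1a was at 0.27 without passing (edgeR adjusted p = 0.0763). Neither call held without WT vehicle replicate 4: Uqcc2 was at -0.30 (edgeR adjusted p = 0.0640) and Ppargc1b at 0.39 (edgeR adjusted p = 0.104). No assembly factor of complex I (of 15), II (of 4), IV (of 18) or V (of 4) passed edgeR's test, with 3, 2, 5 and 2 at an unadjusted p under 0.05. Nor did any of 16 enzymes of the tricarboxylic acid cycle, of 17 of glycolysis or of 11 electron and nucleotide carriers, with 2, 6 and 4 at an unadjusted p under 0.05. Over all genes tested, 3694 of 15507 had an unadjusted p under 0.05.

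The ribosomal proteins, the other large families of short transcripts, leaned as the members did. With vehicle 3 of 78 cytosolic ones fell in KI (Rpl31 by 0.37, Rpl3 by 0.22 and Rpl6 by 0.20 on the log2 scale) and 1 of 78 mitochondrial ones fell (Mrps15, by 0.30), where 2.19% of all genes fell. The list medians were -0.24 and -0.19, and the members' was -0.19. The list medians without WT vehicle replicate 4 were -0.12 and -0.11, and none of these 4 genes passed (edgeR adjusted p 0.0538 to 0.118). With CFA, the list medians were -0.01 and -0.023, and 2.84% of all genes were called. Etfdh, which passes electrons from fat oxidation to ubiquinone, and Aldoc, a glycolytic aldolase, rose in KI by 0.25 and 0.33 on the log2 scale. Averaged over both injections, where 8.96% of all genes were called in either direction, the assembly factors Uqcc2 and Uqcc1 fell in KI by 0.31 and 0.12. Atpaf1 (an assembly factor of ATP synthase) rose by 0.19, Ppargc1a by 0.25, Ogdh (of the tricarboxylic acid cycle) by 0.14 and Etfdh by 0.23. In glycolysis Aldoc and Ldhb rose and Tpi1 fell, and 2 ribosomal protein genes of each kind fell. Without WT vehicle replicate 4 Uqcc1 did not pass (-0.11, edgeR adjusted p = 0.0629), and the other genes named for this average did. Of the 10 sensory neuron markers, Tubb3 fell in KI with vehicle by 0.16 (edgeR adjusted p = 0.0419; 0.0509 without WT vehicle replicate 4), with CFA by 0.17 (edgeR adjusted p = 0.0344) and over both injections by 0.16 (edgeR adjusted p = 0.00163); the part of cell makeup in these values was not tested. CFA called no gene of these lists in either genotype by edgeR, where it called none in the table.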

How the data were processed

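Libraries were poly-A selected and read as single 50-base ends, per the labels' protocols. The submitters' processing notes name the aligner TopHat2 2.1.1 with Bowtie2 2.3.5.1, the counter HTSeq 0.6.1p1, and also SAMtools 1.5, FastQC and bcl2fastq 2.20, with the build mm10; the annotation, strand setting and treatment of reads with several matches are not given in the sources used here. The deposited table holds raw counts per gene, as whole numbers, for 16 libraries; 20 libraries shared 3 lanes per the labels, which do not tie libraries to lanes. Total counts limit precision as given in the report.

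Counts were fitted with edgeR 4.0.16 in R 4.3.3 (quasi-likelihood test, 4 group means over all 16 libraries, TMM factors, filterByExpr), with Benjamini-Hochberg adjustment over 15507 genes; called means an adjusted p under 0.05. Rows with 0 in every library numbered 4755 of 24982. The log2 CPM values behind the library deviations carry a prior count of 2, and edgeR's fold changes keep its default prior count. DESeq2 1.42.0, limma 3.58.1 (voom with library quality weights), other scalings and filters, left-out libraries, a muscle score and an offset by annotated transcript length were alternatives. The length offset, the joint removal of replicate 4 from both vehicle groups, the other gene lists without WT vehicle replicate 4, and the split by source numbers were chosen after seeing the data. The fit was tested on simulated data. Members, lists and named genes were chosen with earlier results of these data known. Named are members that were called, those with the smallest p-values, the most abundant of each complex, complex II, Cyc1, Uqcrfs1 and the isoform sets; others were named after their values were seen. Promoters are from RefSeq (GRCm38.p6). Transcript lengths and shared windows are from GENCODE transcripts, with those matched to a RefSeq mRNA preferred.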

Additional observations from a re-analysis of the deposited data

Results flagged for a closer look

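In 15 of 164 sets of 4 libraries, 1 library stood far from the other 3 (a gap above Dixon's 95% critical value). Chance gives about 1 set in 20, but the sets are not independent. They reuse the same libraries over many genes, some of them named for a small p-value. The 15 are therefore not a measure against chance. Of these, 10 concern WT vehicle replicate 4, each time above the other replicates of its group. The median deviation of complex II was 0.29 there against at most 0.039 in the others, and that of complex V was 0.40 against at most 0.027. Atp5g1 was at 184.9 CPM against 148.2 to 148.4, Atp5j at 127.2 against 88.9 to 91.5, and Cox6b1 at 254.6 against 178.1 to 183.0. Cox7a2 was at 163.2 CPM against 100.6 to 108.3, Cox8a at 228.4 against 165.2 to 166.4, and Ndufa4 at 315.9 against 197.2 to 215.4. Sdhb was at 138.0 CPM against 104.5 to 108.3 and Sdhd at 111.1 against 81.5 to 86.3.

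KI vehicle replicate 2 was above its group in Cyc1 (117.8 CPM against 103.4 to 105.4), Sdha (310.5 against 294.7 to 296.5) and Uqcrc1 (221.2 against 208.2 to 208.4). KI vehicle replicate 3 was above in Ndufb4c, at 5.12 CPM against 4.33 to 4.42. KI CFA replicate 2 was above in Ndufa10, at 197.1 CPM against 176.5 to 178.0.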

How the results depend on the processing

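The count of members called moved in 4 of 7 comparisons, on low numbers. For KI against WT with vehicle (1 of 83), it was 15 at an adjusted p under 0.1, 2 with no filter, 12 with DESeq2, 2 with the length offset, 0 without KI vehicle replicates 1 and 4, 0 against WT source numbers 1 to 5 and 57 against 6 to 9; leaving out 1 library gave 1 to 11, the highest without WT vehicle replicate 2 (11), then without WT vehicle replicate 1 (4). For KI against WT over both injections (1 of 83), it was 5 at an adjusted p under 0.1, 4 with DESeq2, 3 with the length offset (Ndufb3 fell, Ndufc1 and Uqcrfs1 rose), 0 against WT source numbers 1 to 5 and 50 against 6 to 9; leaving out 1 library gave 1 to 3. For CFA in KI, leaving out 1 library gave 0 to 1 (Cox6a2, without KI vehicle replicate 2). For CFA over both genotypes, DESeq2 called 1 (Cox6a2), and leaving out 1 library gave 0 to 1. The cause was not tested, and these counts are not set beside the share of all genes called in each setting. In the other 3 comparisons no alternative called a member.

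With the replicate number as a block, the count over both injections was 2 (Cox6a2 and Ndufb3), and no other count moved. Replicate numbers did not pair the libraries: the correlation of same-numbered libraries ran from -0.207 to 0.133 over 24 pairs, with 3 over 0.1, and 6 of 48 matched best with their own number.

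Of 3819 single-gene values under alternatives, 3573 kept both their sign and their side of the threshold. Another 204 changed sign, with no call in either fit. A call was gained by 39 and lost by 3, all 3 of Ndufb3 as given in the report. None that was called in either fit changed sign. The forms near 1 CPM are limited by depth, and 3 counts, the limit that a count of 0 allows, are 0.0955 CPM in KI CFA replicate 1.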
